A study of Homo sapiens with 4 samples.

Results

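The annexins described here are 10 genes, ANXA1, ANXA2, ANXA3, ANXA4, ANXA5, ANXA6, ANXA7, ANXA10, ANXA11 and ANXA13, taken by name from the platform annotation. All 10 were among the 18417 genes that had a probe listing 1 gene symbol, and each of them had 1 such probe. They were measured in HuH7, a human hepatocellular carcinoma line grown in 10% serum and kept below passage 10, on 1-colour whole-transcript arrays. The MKL1/2 shRNA cells stably expressed short hairpin RNA (shRNA) directed against both MKL1 and MKL2, and the other cells a control shRNA, with 2 arrays in each group. Both kinds of cell had been infected with a pLKO.1 lentivirus and kept in puromycin for 7 days. MKL1 and MKL2, now MRTFA and MRTFB, are coactivators of serum response factor (SRF) that respond to the pool of monomeric actin, and the comparison asks which transcripts depend on them. The titles call the arrays biological replicates without naming separate infections, so the p-values measure only the spread between these samples, which may be technical. The design holds 1 knockdown condition, so an effect of these hairpins on other transcripts and an effect of MKL1 and MKL2 loss cannot be told apart.

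Annexins are cytosolic proteins that bind acidic phospholipids when calcium rises. Each has a conserved core of repeats that carries the calcium sites and a variable N-terminal tail that binds partners such as S100 proteins. When the plasma membrane tears and calcium enters, several annexins gather at the wound edge, where they bridge vesicles, curve or cross-link the torn membrane and help recruit other repair proteins. In liver cells they are also known for roles in secretion, endocytosis and membrane traffic.

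No annexin gene passed the test that was applied to all genes, although the means of several lay apart between the groups. In limma, with Benjamini-Hochberg adjustment over the 18417 genes and a threshold of 0.05, 0 of the 10 were called, where 0.174% of all genes were. At an unadjusted p under 0.05 there were 2, ANXA3 lower and ANXA4 higher in MKL1/2 shRNA cells, against 14.3% of all genes. The mean was lower in MKL1/2 shRNA cells for 7 annexin genes and higher for 3, where 48.0% and 51.9% of all genes did so. The groups did not overlap for 5 lower annexin genes (ANXA1, ANXA3, ANXA5, ANXA6 and ANXA7) and for 1 higher one (ANXA4), where 23.0% and 22.5% of all genes did so (45.5% in either direction). The median log2 difference, MKL1/2 shRNA minus control shRNA, was -0.047 over the annexins and 0.0082 over all genes. The differences ran from -1.10 for ANXA3 to 0.36 for ANXA4.

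**Figure D1:**
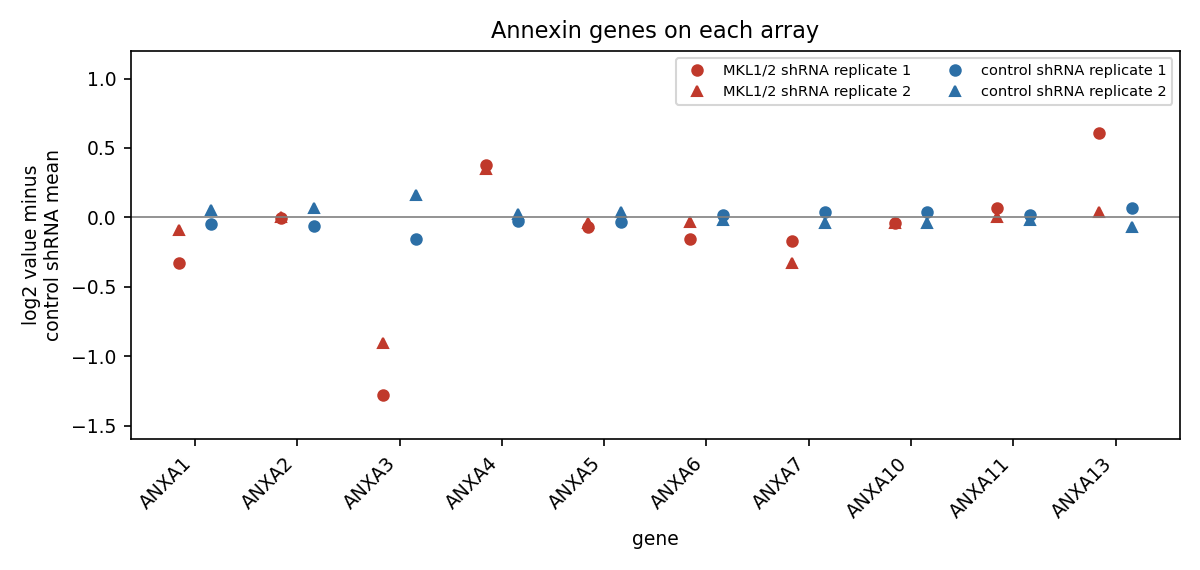
Log2 value of each annexin gene on each array, minus that gene's control shRNA mean, so that 0 is the control mean. Red points are the MKL1/2 shRNA arrays and blue points the control shRNA arrays. Both red points lie well below the blue ones for ANXA3 (-1.28 and -0.91) and above them for ANXA4 (0.37 and 0.35), and the red points of ANXA13 are far apart.

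Promoter windows are shown for the gene with the widest difference, ANXA3, and for 3 annexin genes whose windows hold a motif that was searched. RefSeq (GRCh38.p14) gave 13 windows for 9 of the 10 genes, and ANXA13 is named only. Each window is the 250 bases before an annotated start, 5′ to 3′ along the gene's strand, and capitals mark a motif match on either strand.
ANXA3, chr4:78551520-78551769, plus strand: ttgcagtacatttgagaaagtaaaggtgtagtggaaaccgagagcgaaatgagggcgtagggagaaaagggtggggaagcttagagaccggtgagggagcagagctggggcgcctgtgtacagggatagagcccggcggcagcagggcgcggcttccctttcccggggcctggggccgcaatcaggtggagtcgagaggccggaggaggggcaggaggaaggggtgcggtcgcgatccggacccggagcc
ANXA7, chr10:73414059-73414308, minus strand: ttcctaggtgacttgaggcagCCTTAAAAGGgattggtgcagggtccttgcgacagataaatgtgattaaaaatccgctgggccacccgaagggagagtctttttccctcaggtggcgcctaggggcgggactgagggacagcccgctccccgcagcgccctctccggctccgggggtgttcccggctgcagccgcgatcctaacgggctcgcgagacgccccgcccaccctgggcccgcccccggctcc
ANXA2, chr15:60397987-60398236, minus strand: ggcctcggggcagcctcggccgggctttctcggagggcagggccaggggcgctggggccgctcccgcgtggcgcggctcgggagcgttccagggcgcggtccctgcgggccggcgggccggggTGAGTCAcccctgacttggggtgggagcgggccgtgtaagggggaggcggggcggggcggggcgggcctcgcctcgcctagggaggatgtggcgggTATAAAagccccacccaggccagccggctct
ANXA1, chr9:73151615-73151864, plus strand: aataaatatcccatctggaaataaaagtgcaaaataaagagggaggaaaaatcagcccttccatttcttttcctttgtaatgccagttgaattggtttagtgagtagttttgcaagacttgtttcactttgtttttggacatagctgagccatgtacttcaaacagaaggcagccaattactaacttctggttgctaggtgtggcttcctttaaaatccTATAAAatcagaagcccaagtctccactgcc
The motifs were the CArG box, which SRF binds, GGAATG, which TEAD factors bind, the AP-1 motif TGANTCA, and TATAAA, and no matches overlapped each other. The CArG box was found in 1 of the 13 annexin windows, that of ANXA7, where it begins 229 bases before the start, and in 1.16% of 35116 windows of all genes. TGANTCA was found in the ANXA2 window and in 6.57% of all windows. TATAAA was found in windows of ANXA1, ANXA2, ANXA10 and ANXA11 and in 10.7% of all windows, beginning 31 bases before the start in both ANXA1 and ANXA2. GGAATG was in 0 of the 13 windows, against 11.9% of all. The ANXA3 window held no match to any of these letters. Its GC content was 64.0%, against a median of 58.0% over all windows, 38.4% for ANXA1 and 78.0% for ANXA2. A match describes the letters in a window and not a bound site.

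ANXA3, an annexin that promotes membrane fusion of secretory granules in neutrophils and has been studied in hepatocellular carcinoma, had the widest difference of the family. Its log2 values were 8.60 and 8.98 in MKL1/2 shRNA cells, against 9.73 and 10.04 in control shRNA cells. Both knockdown arrays lay below both control arrays, and the nearest pair of arrays from the 2 groups was 0.75 apart. The level averaged 8.79 ± 0.265 in MKL1/2 shRNA cells and 9.88 ± 0.225 in control shRNA cells (SD, n = 2 each). The log2 difference was -1.10 (SE 0.168, 95% interval -1.50 to -0.69), which is 46.8% of the control level. Its limma adjusted p was 0.0899 (unadjusted p = 0.000569), so it missed the threshold. By size it was the 26th lowest difference of the 18417 genes, and by p it ranked 116th. The 2 arrays within each group were also further apart for ANXA3 than for most annexins, by 0.38 in MKL1/2 shRNA cells and 0.32 in control shRNA cells. With MKL1/2 shRNA replicate 2 left out the difference was -1.28, whereas without MKL1/2 shRNA replicate 1 it was -0.91. Over all alternatives the ANXA3 adjusted p ran from 0.0202 to 0.805.

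ANXA4, an annexin of epithelial and secretory cells that bundles and stiffens membranes, lay the other way. Its values were 10.03 and 10.01 in MKL1/2 shRNA cells, against 9.64 and 9.68 in control shRNA cells. The arrays of each group lay close together and the groups did not overlap. The log2 difference was 0.36 (SE 0.093, 95% interval 0.14 to 0.59), a level 1.29 times the control level, with a limma adjusted p of 0.191. It stayed between 0.33 and 0.39 in every alternative tried and was called in none of them.

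**Figure D2:**
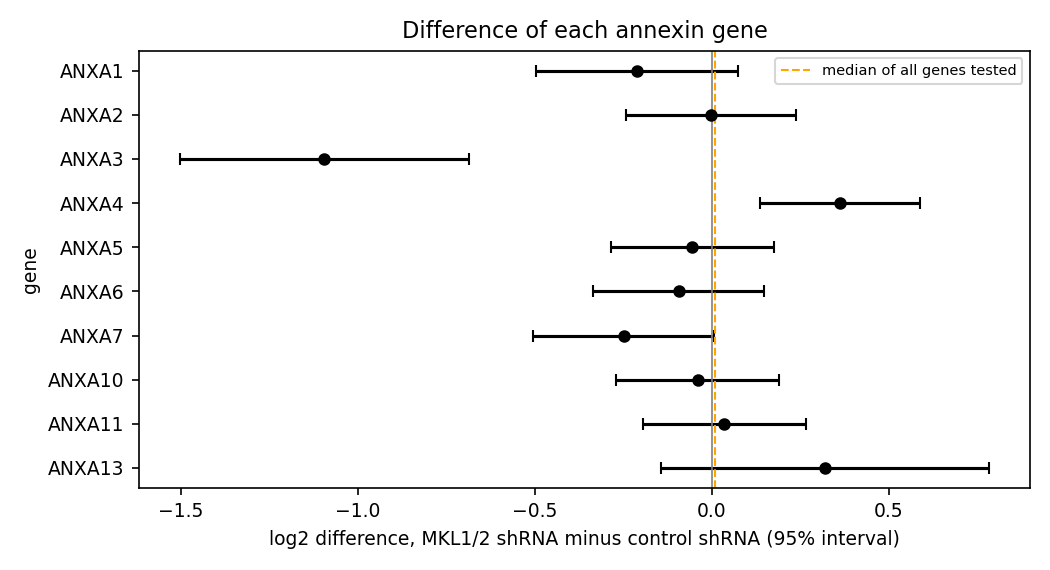
Log2 difference of each annexin gene, MKL1/2 shRNA minus control shRNA, with limma's 95% interval that is not adjusted for the number of genes. The dashed line is the median of all 18417 genes, 0.0082. The intervals of ANXA3 and ANXA4 lie to either side of 0, and those of the other genes include it.

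ANXA1 and ANXA2, which are among the annexins with S100-binding tails, did not share a pattern. ANXA1, which restrains phospholipase activity and signals to formyl peptide receptors once secreted, had 9.35 and 9.59 in MKL1/2 shRNA cells, against 9.63 and 9.73 in control shRNA cells. Its groups did not overlap, but the closest arrays of the 2 groups were 0.043 apart, and the 2 knockdown arrays were 0.24 apart. The log2 difference was -0.21 (SE 0.117), with a limma adjusted p of 0.476. ANXA2, which pairs with S100A10 at the plasma membrane and binds actin and plasminogen activators, had 10.78 and 10.79 in MKL1/2 shRNA cells, against 10.72 and 10.86 in control shRNA cells. The knockdown values lay between the control values. The ANXA2 log2 difference was -0.0021 with a 95% interval of -0.24 to 0.24, or 0.845 to 1.18 times the control level.

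ANXA2 has close pseudogene copies, and the probes named for them may share its transcripts. The ANXA2P2 probe read 10.74 and 10.72 in MKL1/2 shRNA cells, against 10.65 and 10.81 in control shRNA cells. As for ANXA2, control replicate 1 was the lowest array and control replicate 2 the highest. ANXA2P1 and ANXA2P3 had log2 differences of 0.0013 and 0.0094. A further probe that lists ANXA2 with SNU13 had a difference of 0.050. What each probe adds to ANXA2 could not be separated, and the 4 probes besides the ANXA2 one gave differences between 0.00084 and 0.050.

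ANXA5 and ANXA6, which assemble on exposed phosphatidylserine and on the inner face of the plasma membrane, differed little between the groups. ANXA5 had 11.18 and 11.20 in MKL1/2 shRNA cells, against 11.21 and 11.28 in control shRNA cells. The knockdown arrays were both lower, but the nearest arrays of the 2 groups were 0.0065 apart. Its log2 difference was -0.055 (SE 0.0943), with a limma adjusted p of 0.852. ANXA6, the annexin with an enlarged core, had 8.74 and 8.87 in MKL1/2 shRNA cells, against 8.91 and 8.88 in control shRNA cells. Its groups were 0.011 apart at their nearest, with a log2 difference of -0.093 (SE 0.0991) and a limma adjusted p of 0.736. The 95% intervals allowed levels from 0.821 to 1.13 times control for ANXA5 and from 0.793 to 1.11 times control for ANXA6.

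ANXA7 and ANXA11, annexins with long N-terminal tails that bind the calcium sensor ALG-2, gave differences of opposite sign. ANXA7, first described as a protein that aggregates secretory granules, had 8.07 and 7.91 in MKL1/2 shRNA cells, against 8.28 and 8.20 in control shRNA cells. Both knockdown arrays were lower, by 0.17 and 0.33 from the control mean. Its log2 difference was -0.25 (SE 0.105, 95% interval -0.50 to 0.0065), with a limma adjusted p of 0.359. The ANXA7 window is the one printed above that holds a CArG box. ANXA11, which tethers RNA granules to lysosomes, had 8.94 and 8.87 in MKL1/2 shRNA cells, against 8.885 and 8.85 in control shRNA cells. Its groups overlapped, and the log2 difference was 0.036 (SE 0.0944), with a limma adjusted p of 0.911.

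ANXA13 and ANXA10, known from intestinal and gastric epithelium, had probes at low log2 values. ANXA13 had 4.87 and 4.30 in MKL1/2 shRNA cells, against 4.33 and 4.19 in control shRNA cells. Knockdown replicate 1 stood above the other arrays, whereas replicate 2 lay between the control values. The log2 difference was 0.32 (SE 0.19), with a limma adjusted p of 0.505. It was 0.60 without MKL1/2 shRNA replicate 2 and 0.037 without MKL1/2 shRNA replicate 1. The ANXA10 probe read 2.98 and 2.98 in MKL1/2 shRNA cells, against 3.06 and 2.98 in control shRNA cells. It lay below the lower quartile of all probes on all 4 arrays and had the same value on 3 of them, and 20 of the 18417 genes had the same value to 4 decimals on at least 3 arrays. No background level is known for these arrays, so ANXA10 was not shown to be measured above background and its difference of -0.040 is not read as a level change.

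The genes whose pattern over the 4 arrays was nearest to that of ANXA3 were MSRB3, COTL1, MYL9, RNVU1-15 and GJA1. Likeness was the root-mean-square distance between log2 values centred on each gene's own mean, which takes in the size of a difference as well as its order, over 4 arrays. MSRB3, a methionine sulfoxide reductase, was nearest at 0.0506, with 5.55 and 6.01 in MKL1/2 shRNA cells, against 6.78 and 6.99 in control shRNA cells. MYL9, a regulatory light chain of myosin II, lay at a distance of 0.104, with 8.80 and 9.15 in MKL1/2 shRNA cells, against 10.16 and 10.27 in control shRNA cells. COTL1, an actin-binding protein, and GJA1, the connexin of many gap junctions, lay at 0.0840 and 0.114, and RNVU1-15, a small nuclear RNA gene, at 0.112. In each of these, MKL1/2 shRNA replicate 1 was the lowest array and MKL1/2 shRNA replicate 2 the next lowest, as in ANXA3. The genes were chosen for nearness to ANXA3, so this order and the size of their differences are not separate findings. The log2 differences of the 5 genes ran from -1.31 for RNVU1-15 to -1.08 for GJA1. COTL1 (adjusted p = 0.0498) and GJA1 (adjusted p = 0.0382) passed in limma, and MYL9 (adjusted p = 0.0508), RNVU1-15 (adjusted p = 0.0563) and MSRB3 (adjusted p = 0.0944) did not.

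**Figure D3:**
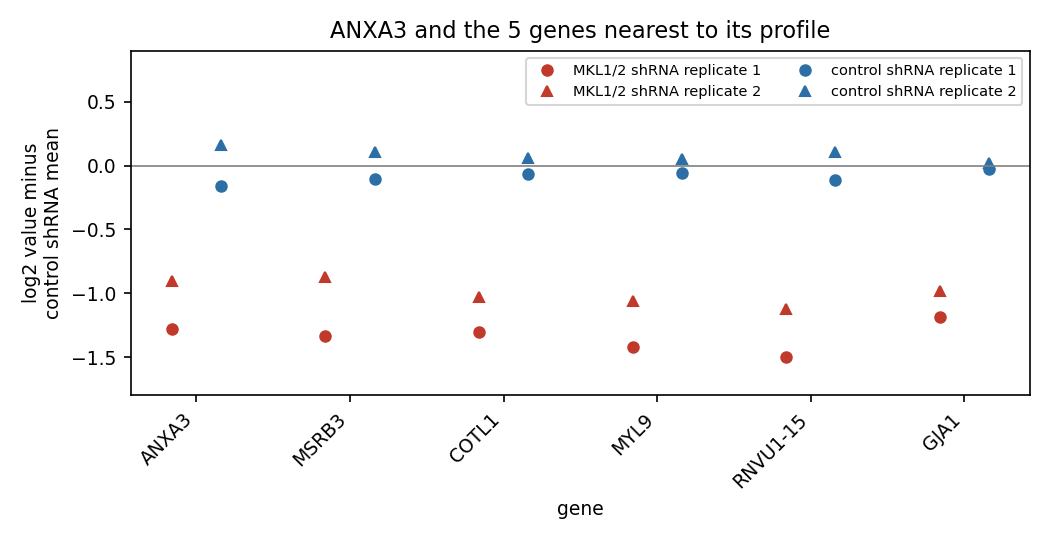
ANXA3 and the 5 genes with the nearest profile over the 4 arrays, as log2 value minus each gene's control shRNA mean. Red points are MKL1/2 shRNA arrays and blue points control shRNA arrays. The 5 genes were chosen for their likeness to ANXA3. In all 6 genes MKL1/2 shRNA replicate 1 is lowest, and ANXA3 shows the widest gap between its control arrays.

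Among annexins outside the 10, ANXA9 had its own probe, whereas ANXA8 and ANXA8L1 shared probes. ANXA9, an annexin with atypical calcium sites, had 7.51 and 7.85 in MKL1/2 shRNA cells, against 7.33 and 7.44 in control shRNA cells. Its groups did not overlap, with a log2 difference of 0.29 (SE 0.137) and a limma adjusted p of 0.404. The 3 probes that list ANXA8L1 and ANXA8 together had log2 differences of 0.12, 0.16 and 0.17.

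Of 55 measured partner and membrane repair genes, 1 fell, MYOF, and none rose at an adjusted p of 0.05 in limma, where 0.0923% and 0.0814% of all genes did. MYOF encodes myoferlin, a membrane protein with calcium-binding C2 domains that acts in vesicle fusion and plasma membrane repair. It had 6.92 and 7.09 in MKL1/2 shRNA cells, against 8.62 and 8.44 in control shRNA cells, a log2 difference of -1.52 (adjusted p = 0.0167). MYOF was put on the list with knowledge of the study, so its call is not independent evidence. Its call was lost when control replicate 1 (adjusted p = 0.473) or control replicate 2 (adjusted p = 0.382) was left out, at differences of -1.43 and -1.61, in limma fits that called 0 genes (with 866 and 1219 genes whose unadjusted p was under 0.05). At an unadjusted p under 0.05 in limma, 5 of the 55 were lower and 7 higher, against 8.04% and 6.25% of all genes, and the median of the 55 was 0.0085.

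The other members of the ferlin and repair list did not pass. Its 25 measured genes had a median of -0.018, with 15 means lower and 10 higher, where 48.0% and 51.9% of all genes were. Their log2 differences ran from -1.52 for MYOF to 0.68. DYSF, which encodes dysferlin, the ferlin of muscle membrane repair, had 4.76 and 4.78 in MKL1/2 shRNA cells, against 5.39 and 5.27 in control shRNA cells. The DYSF groups did not overlap, with a log2 difference of -0.56 (SE 0.0978) and a limma adjusted p of 0.113. SYT7, the calcium sensor of lysosome exocytosis, had 6.24 and 6.39 in MKL1/2 shRNA cells, against 5.77 and 5.83 in control shRNA cells. Its log2 difference was 0.51 (SE 0.103), with a limma adjusted p of 0.134. The repair scaffold gene AHNAK, at -0.086, lay closer to 0 than DYSF and SYT7. So did the subunits of calpain, a protease that cleaves membrane skeleton proteins, with CAPN1 at -0.038, CAPNS1 at -0.018 and CAPN2 at -0.30.

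**Figure D4:**
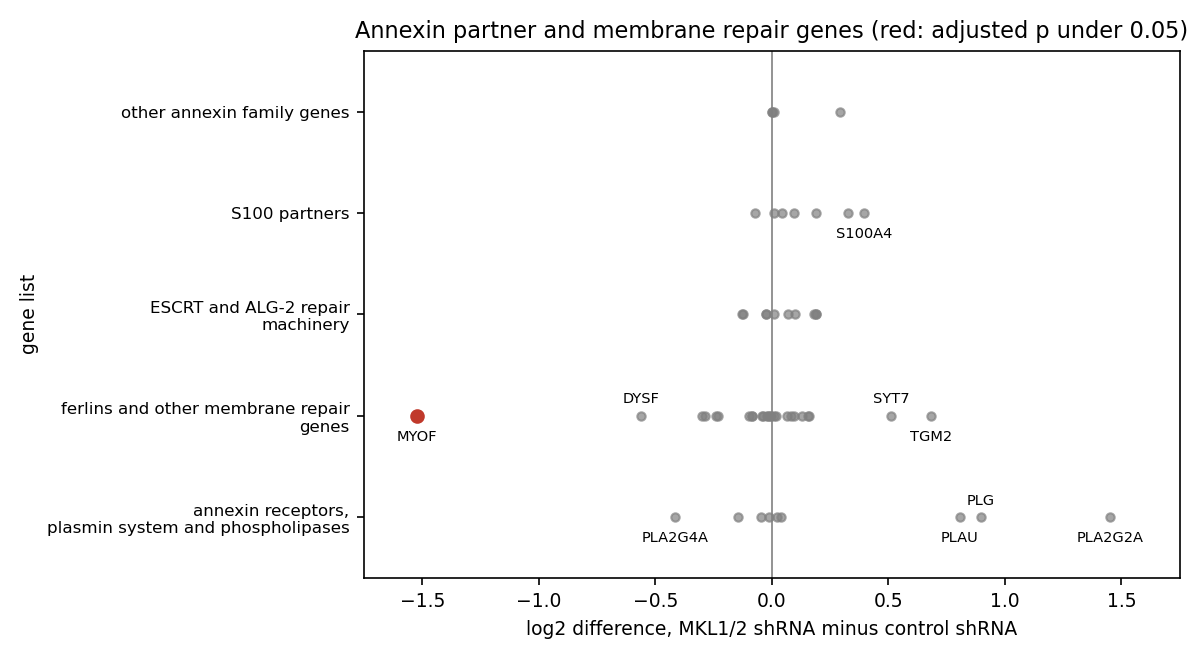
Log2 difference, MKL1/2 shRNA minus control shRNA, of each measured gene on the 5 lists of annexin relatives, S100 partners and membrane repair genes, 1 list per line. MYOF, in red at -1.52, is the gene with an adjusted p under 0.05, and genes more than 0.35 from 0 are labelled.

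The S100 genes, whose small calcium-binding products dock on annexin tails, had 6 means higher and 1 lower of 7, where 51.9% and 48.0% of all genes were, and 0 passed over all genes, where 0.174% did. S100A10, the ANXA2 partner, had 11.75 and 11.55 in MKL1/2 shRNA cells, against 11.35 and 11.57 in control shRNA cells, and the groups overlapped. S100A11, the ANXA1 and ANXA6 partner, had 11.64 and 11.34 in MKL1/2 shRNA cells, against 11.35 and 11.54 in control shRNA cells, and also overlapped. S100A6 and S100A4 had the smallest p of the list. S100A6 read 6.83 and 6.95 in MKL1/2 shRNA cells, against 6.60 and 6.53 in control shRNA cells, higher by 0.33 on the log2 scale (SE 0.0998, limma adjusted p = 0.237). S100A4 had 5.35 and 5.76 in MKL1/2 shRNA cells, against 5.13 and 5.19 in control shRNA cells, higher by 0.39 on the log2 scale (SE 0.15, limma adjusted p = 0.317).

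The ESCRT genes, whose products pinch off damaged membrane after ALG-2 and annexins arrive, had log2 differences from -0.13 to 0.19. Of 14 listed genes 10 had a probe naming 1 gene, and PDCD6 (the ALG-2 gene), CHMP3 and CHMP4A shared theirs with other genes, while PDCD6IP was not analysed here. CHMP2A, CHMP4C and CHMP2B had the smallest p, with log2 differences of 0.19, 0.18 and 0.19 and a lowest limma adjusted p of 0.443. CHMP2B overlapped between the groups, at 8.66 and 8.21 in MKL1/2 shRNA cells, against 8.20 and 8.29 in control shRNA cells.

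Among the annexin receptors, plasmin system and phospholipases, 0 of 9 genes passed over all genes, and 1 was lower and 3 higher at an unadjusted p under 0.05 in limma, against 0.174% of all genes past the threshold and 8.04% and 6.25% at the unadjusted p. PLA2G2A, a secreted phospholipase, had 7.11 and 6.45 in MKL1/2 shRNA cells, against 5.23 and 5.43 in control shRNA cells. Its groups were well apart, but the knockdown arrays differed by 0.65, and the log2 difference of 1.45 (SE 0.216) had a limma adjusted p of 0.0847. PLAU, the plasminogen activator urokinase, had 7.88 and 8.06 in MKL1/2 shRNA cells, against 7.19 and 7.13 in control shRNA cells, with 0.81 between the group means (log2, SE 0.106, limma adjusted p = 0.0688). PLA2G4A, the cytosolic phospholipase that annexins restrain, had 6.31 and 6.50 in MKL1/2 shRNA cells, against 6.88 and 6.76 in control shRNA cells, with -0.41 between the group means (log2, SE 0.112, limma adjusted p = 0.206). With 1 array left out, the log2 difference ran from 0.72 to 0.89 for PLAU and from 1.12 to 1.78 for PLA2G2A. The formyl peptide receptor genes FPR1, FPR2 and FPR3, known from myeloid cells, had differences of -0.047, -0.012 and 0.020.

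Of the targeted genes, the MRTFA probe passed the test and MRTFB did not. The MRTFA probe, whose annotation also lists RBM15, averaged 6.86 ± 0.066 in MKL1/2 shRNA cells and 7.79 ± 0.023 in control shRNA cells (SD, n = 2 each, limma adjusted p = 0.0404), a call that was lost without control replicate 1 or 2 (adjusted p = 0.732 and 0.638) at differences of -0.94 and -0.91, against -0.93 with all arrays. MRTFB had 6.84 and 7.11 in MKL1/2 shRNA cells, against 7.20 and 7.22 in control shRNA cells, a difference of -0.23 that did not pass (limma adjusted p = 0.448). The 7 hepatocyte lineage markers lay between 9.95 and 12.43 in MKL1/2 shRNA cells and between 9.91 and 12.26 in control shRNA cells. Their log2 differences ran from -0.31 to 0.19, and 0 passed the threshold, where 0.174% of all genes did. The groups did not overlap for 2 lower and 3 higher markers, where 23.0% and 22.5% of all genes did so. Of 9 stromal, endothelial and immune markers 8 had a higher mean in MKL1/2 shRNA cells, where 51.9% of all genes did. Their median difference was 0.11, against 0.0082 over all genes, and 0 passed the threshold, where 0.174% of all genes did. The part of these markers in the annexin values was not tested. Over all genes the SD of the log2 difference was 0.265 between the 2 knockdown arrays and 0.154 between the 2 control arrays, against 0.261 to 0.31 between an MKL1/2 shRNA and a control shRNA array. Knockdown replicate 2 was about as close to control replicate 2 (0.261) as to knockdown replicate 1, and 32 genes passed in all.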

How the data were processed

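The authors' deposited table holds a log2 value for each of 33297 probes on 4 arrays, biotin-labelled with a whole-transcript kit per the labels' protocols. Partek is named per the submitters' processing notes, and how the values were background-corrected and normalized is not given in the sources used here. Their range, 1.03 to 13.65, was taken to mean a log2 scale, with array medians between 5.68 and 5.73. No background level or detection call was used, and the number of arrays limits the precision.

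Groups come from the sample titles. Of the probes, 19460 list 1 gene symbol, 1754 several and 12083 none; symbols were updated through Entrez identifiers (19429 found in RefSeq, GRCh38.p14), and the probe with the highest mean was used, giving 18417 genes. The probe for MRTFA, which names RBM15 too, was tested beside them. The 2 groups were compared with limma 3.58.1 (R 4.3.3; lmFit, eBayes, two-sided, 2 residual and 4.12 prior degrees of freedom), adjusted by Benjamini-Hochberg over all genes at 0.05. The procedure was also run on simulated data with variances drawn from limma's own fitted prior. There 84.8% of 2-fold changes were called and 4.46% of calls were false. Because those data follow limma's assumptions, the run cannot show how well the procedure works on these arrays. Promoter windows and motifs were read with Python 3.11.15.

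The annexin genes, partner lists and motifs were chosen with earlier results of these data known. The genes named are the 10 annexins, the shRNA targets, the 3 partner genes with the smallest p in each list, those past the threshold, the best known partners, and the 5 nearest to the annexin with the smallest p; others, such as CAPN2, FPR1 and the probes shared by ANXA8, were named after their values were seen. Alternatives changed the dim-gene filter, normalization, probe choice, variance moderation, threshold and replicate block, and left out each array.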

Additional observations from a re-analysis of the deposited data

How the results depend on the processing

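The annexin values kept their direction in most of the 13 alternatives, but most of these could not move a difference. Only quantile normalization, median centring and leaving out an array could, and the other alternatives left each annexin difference that they held unchanged. Counts of calls depended on the arrays and the variance estimate. Against 32 genes in limma, 0 passed when every probe was tested on its own or without variance moderation (2123 and 1840 genes at an unadjusted p under 0.05), 68 with a trended, robust moderation, 93 with the replicate block and 144 at an adjusted p of 0.1; leaving out 1 array gave 0 to 781 (0 without either control array, with 866 and 1219 genes at an unadjusted p under 0.05). With every array kept, the annexin count of 0 became 1, ANXA3, with the replicate block (limma adjusted p = 0.0202) and at 0.1. The count also rose without MKL1/2 shRNA replicate 2, where the log2 difference was -1.28 for ANXA3 and 0.60 for ANXA13. Leaving out 1 array leaves 1 array in a group, so the spread in those fits comes from the other group alone. The partner gene count of 1 became 2 under quantile normalization, with trended, robust moderation and with the replicate block, 3 at an adjusted p of 0.1, 0 when every probe was tested or without moderation, and 0 to 5 with 1 array left out. The target count of 1 became 0 when every probe was tested or without moderation, and was 0 to 1 with 1 array left out. The replicate number was not treated as a pairing, since the deviations of same-numbered arrays from their group means had a correlation of -0.067 over genes and the labels name no shared day. Signs turned for values near 0. ANXA2 was 0.0065 after quantile normalization and -0.068 to 0.064 with 1 array left out. ANXA2P3 was -0.025 after quantile normalization, -0.023 with median centring and -0.044 to 0.063 with 1 array left out, and ANXA2P1 -0.031 with median centring and -0.078 to 0.081 with 1 array left out. With 1 array left out CHMP2B ran from -0.032 to 0.41 and S100A11 from -0.11 to 0.19. The cause of these changes was not tested. Without the dimmest 40% of genes ANXA10 and ANXA13 had no value.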
